A study of Mus musculus with 32 samples.

Results

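The 9 genes described here, Onecut1, Mycn, Rreb1, Celf3, Kalrn, Abcc8, Itga8, Thsd7a and Alkal2, are genes with higher hippocampal levels after light treatment of 5xFAD mice. They were taken by symbol from the 22337 genes of the expression tables. They were chosen by their expression difference between light-treated and untreated 5xFAD hippocampus in these same samples, so their values in that contrast are given as a description, without a test. Their levels in WT hippocampus, in meninges and in sorted meningeal lymphatic endothelial cells (mLECs), and what they share besides, are described beside it.

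RNA-seq was performed on 32 samples of male mice, all aged 6 months, each from the tissue of 1 animal: hippocampus (HPC) of 4 WT mice, 4 5xFAD mice left untreated and 4 treated with light, whole meninges of 4, 3 and 3 such mice, and mLECs of 4, 3 and 3 such mice. 5xFAD mice carry mutated human transgenes for the amyloid precursor protein and presenilin under the regulatory sequence of Thy1, which drives expression in neurons, and WT mice were littermates without them. Light-treated mice received near-infrared light through the shaved scalp under anaesthesia, repeatedly over several weeks. The study's methods state that untreated mice went through the procedure under room light. No light-treated WT group was analysed here, so an effect of light without the transgenes cannot be told apart from one that needs them. mLECs were sorted from digested meninges as CD45-CD31+PDPN+ cells.

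The 9 genes do not form a pathway. Onecut1, Mycn and Rreb1 encode transcription factors. Onecut1 is a cut-homeodomain factor known from liver, pancreas and some neurons, Mycn is a member of the MYC family that drives growth of neural progenitors with its partner Max, and Rreb1 is a zinc-finger factor that acts downstream of RAS and with SMAD proteins. Celf3 encodes a neuronal RNA-binding protein that regulates splicing. Kalrn encodes kalirin, an activator of small GTPases such as Rac1 that shapes dendritic spines. Abcc8 encodes SUR1, the regulatory subunit of the ATP-sensitive potassium channel whose pore is encoded by Kcnj11. Itga8 encodes the integrin alpha8 chain, which pairs with the beta1 chain (Itgb1) and binds nephronectin (Npnt). Thsd7a encodes a membrane protein with thrombospondin type 1 repeats, and Alkal2 a secreted ligand of the receptor tyrosine kinases Alk and Ltk.

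By GENCODE vM21 on GRCm38, all 9 are protein-coding, and they lie on 8 chromosomes. Onecut1 (ENSMUSG00000043013) lies at chr9:74861921-74891781, Mycn (ENSMUSG00000037169) at chr12:12936093-12941914 and Rreb1 (ENSMUSG00000039087) at chr13:37778400-37952005. Celf3 (ENSMUSG00000028137) lies at chr3:94478295-94492198, Kalrn (ENSMUSG00000061751) at chr16:33969073-34573532 and Abcc8 (ENSMUSG00000040136) at chr7:46104523-46180033. Itga8 (ENSMUSG00000026768) lies at chr2:12106632-12301922, Thsd7a (ENSMUSG00000032625) at chr6:12311610-12749410 and Alkal2 (ENSMUSG00000054204) at chr12:30884322-30893854. Mycn and Alkal2 share a chromosome but are not neighbours. Kalrn and Thsd7a are among the longest genes tested in HPC, with spans above those of 99% and 98% of tested genes, and Mycn is among the short ones, above 14%. Alkal2 shares 529 of its 1509 exon bases with Acp1 on the opposite strand, and Onecut1 shares 2171 of its 4113 exon bases with the long non-coding RNA Gm20649 on its own strand. Reads from the stretch that Alkal2 shares with Acp1 cannot be assigned with certainty, because no source used here gives the counting as strand-specific. Strand would not separate Onecut1 from Gm20649, and Gm20649 has no expression values here.

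RefSeq promoters (GRCm38.p6) were at hand for 8 of the 9 genes, in 17 windows. The 250 bases before each start were searched on both strands for the E-box CACGTG, which Myc family dimers bind, and for ATTGAT (reverse complement ATCAAT), the core bound by Onecut factors, because factors of both families are among the 9 genes. The E-box was found in 2 of the 17 windows, those of Onecut1 and of an internal start of Rreb1, and in 6.02% of all 32851 promoters. The Onecut core was in 0 of the 17 and in 6.72% of all promoters. Both stretches with an E-box are shown on the plus strand, with the E-box in capitals; a match is a description of the letters only.
Onecut1, chr9:74861671-74861770: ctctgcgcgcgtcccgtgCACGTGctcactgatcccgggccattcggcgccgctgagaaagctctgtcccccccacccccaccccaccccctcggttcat
Rreb1, chr13:37826008-37826037: ccaggagactcgcaggagcaaCACGTGatg
The E-box began 232 bases before the Onecut1 start and 9 bases before that Rreb1 start.

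Libraries held 13952825 to 23856476 expected counts in HPC, 6601143 to 14708202 for meninges and 14231415 to 24207326 for sorted cells. Thy1, whose regulatory sequence the transgenes carry, was higher in untreated 5xFAD than in WT HPC by 1.52 ± 0.14 (log2, SE; edgeR's quasi-likelihood test, Benjamini-Hochberg adjusted p = 3.15e-05). A pair of HPC libraries stood apart in the genes of brain regions. In untreated 5xFAD replicate 3, the 5 dentate granule cell markers summed to 15.5 FPKM, against 75.3 to 216 in the other 11 libraries, and the 4 neocortical markers to 203, against 32.6 to 61.6. In light-treated replicate 2, the 5 thalamic and habenular markers summed to 128, against at most 31.8 elsewhere. Values without both libraries are therefore given beside most of the HPC results. In the mLECs, lymphatic markers summed to 38.0 and 55.7 FPKM in WT replicates 2 and 4, against 1155 to 9718 in the other 8 libraries.

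**Figure D1:**
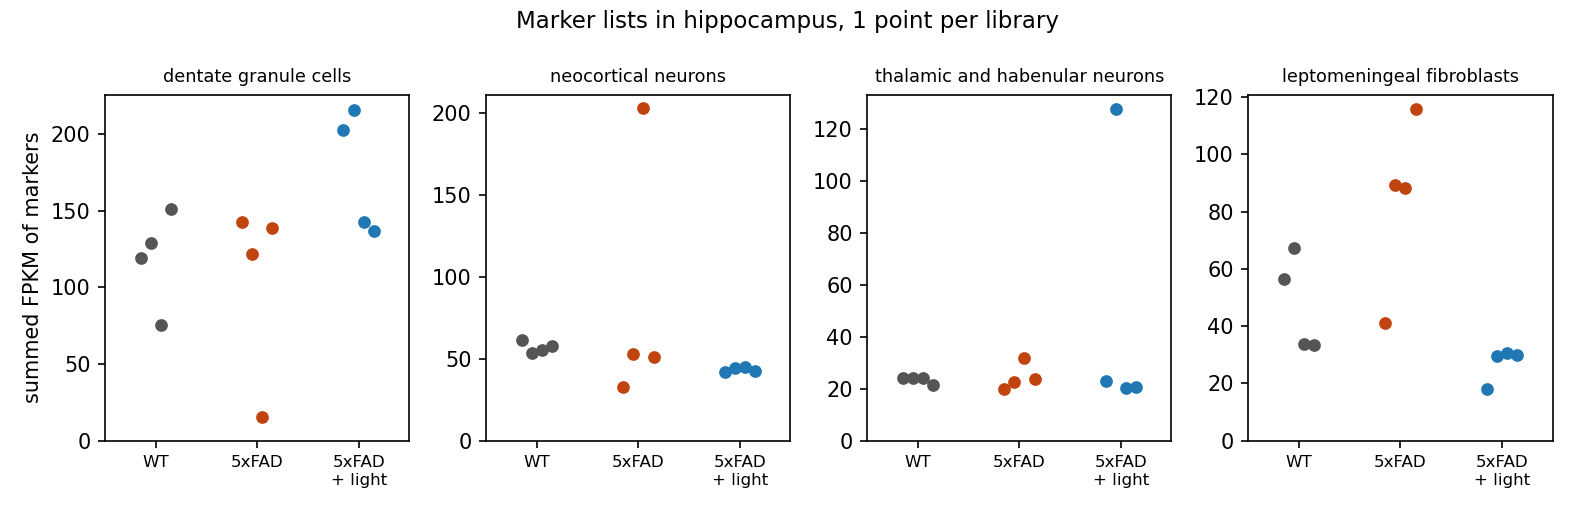
Summed FPKM of marker genes in each of the 12 HPC libraries, by group (1 point per library, linear axes from 0). The dentate sum is lowest in untreated 5xFAD replicate 3 (15.5) and the thalamic and habenular sum highest in light-treated replicate 2 (128), while the leptomeningeal sum is at most 30.6 in the 4 light-treated libraries and at least 41.1 in the 4 untreated ones.

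In HPC, each of the 9 genes was higher in every light-treated 5xFAD library than in every untreated 5xFAD library, as the choice of genes would have it; over all 12981 genes tested, 3.66% stood apart in that direction. In the fit across all tested genes, 8 of the 9 passed an adjusted p of 0.05 as higher, against 0.270% of all tested genes, and Alkal2 did not. Nothing is read from these counts, since this contrast chose the genes. The levels themselves differed widely, from Onecut1 at under 3 FPKM to Kalrn at over 40 FPKM in every library.

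**Figure D2:**
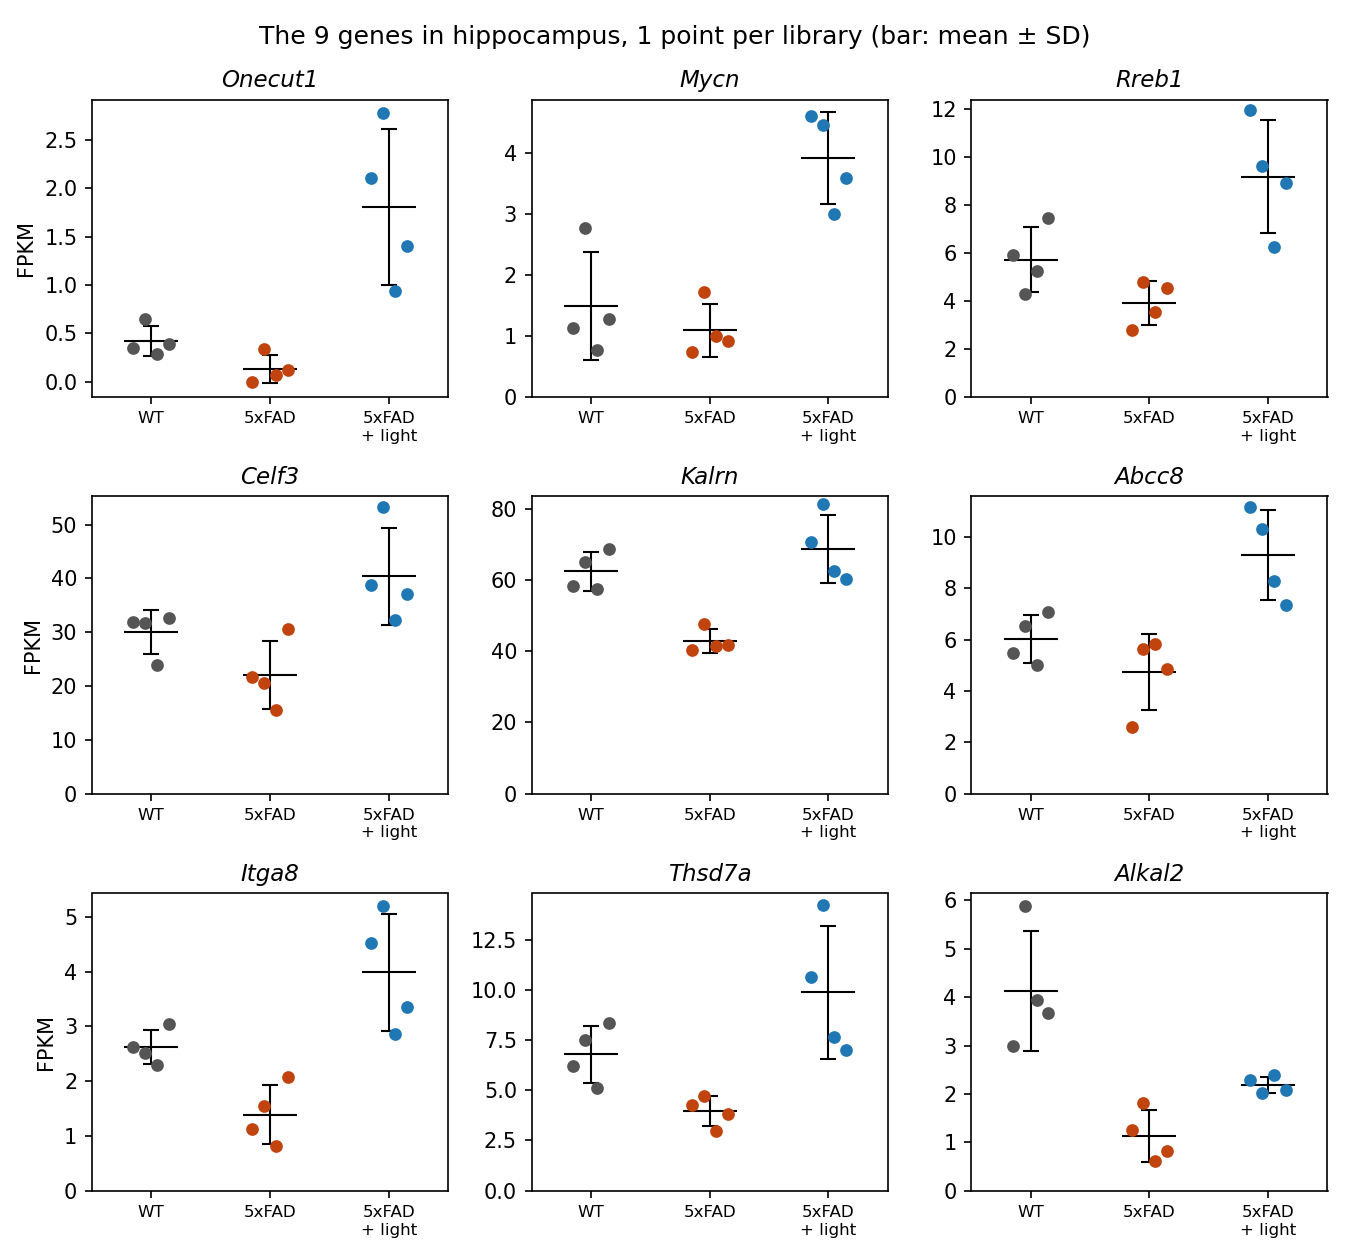
FPKM of the 9 genes in HPC, 1 point per library, with the mean and SD of the 4 libraries of each group; each panel has its own linear axis. In all 9 panels the light-treated points lie above the untreated ones, and in the Alkal2 panel the 4 light-treated points (2.02 to 2.38) also lie below the 4 WT points (3.0 to 5.88).

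Of the transcription factors, Onecut1 had the lowest levels and the widest ratio. Its FPKM was 0.35, 0.65, 0.29 and 0.39 in WT, 0, 0.34, 0.07 and 0.12 in untreated 5xFAD, and 2.11, 2.78, 0.94 and 1.4 in light-treated 5xFAD mice. The light-treated libraries were above both other groups, while WT and untreated libraries overlapped. Onecut1 reached an FPKM of 1 in 3 light-treated libraries and nowhere else, so it entered the test only through that group. The untreated libraries held 0, 30, 4 and 9 expected counts of it, against 65 to 205 in light-treated ones. Onecut1 shares 2171 of its 4113 exon bases with Gm20649, and the part of that RNA in these counts was not tested. The log2 fold change was 3.69 ± 0.64 (SE) for light-treated against untreated mice, -1.59 ± 0.65 for untreated against WT and 2.10 ± 0.57 for light-treated against WT. Without both libraries that stood apart it fell below the filter on low values and had no estimate.

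Mycn had an FPKM of 1.12, 2.78, 0.77 and 1.27 in WT, 0.73, 1.72, 0.99 and 0.92 in untreated, and 4.62, 4.47, 3.0 and 3.6 in light-treated mice. WT and untreated libraries overlapped and all light-treated libraries were above both. The log2 fold change of light-treated against untreated mice was 1.85 ± 0.36, or 1.73 ± 0.42 without both libraries. Rreb1 had an FPKM of 5.9, 4.26, 5.23 and 7.45 in WT, 2.79, 4.77, 3.52 and 4.53 in untreated, and 11.93, 9.61, 6.22 and 8.92 in light-treated mice. For Rreb1, WT lay between and overlapped with both groups. Its log2 fold change was 1.22 ± 0.19, or 1.21 ± 0.23 without both libraries.

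Celf3 and Kalrn, both of neuronal function, were the most abundant of the 9 in FPKM, which is per transcript length. Celf3 had an FPKM of 31.91, 31.75, 23.83 and 32.68 in WT, 21.75, 20.61, 15.45 and 30.66 in untreated, and 38.7, 53.33, 32.27 and 37.16 in light-treated mice. Light-treated libraries were above untreated ones by a small gap, and WT overlapped with both groups. The log2 fold change was 1.07 ± 0.18, or 0.80 ± 0.15 without both libraries. Kalrn had an FPKM of 58.42, 65.14, 57.45 and 68.72 in WT, 40.39, 47.67, 41.4 and 41.78 in untreated, and 70.74, 81.39, 62.42 and 60.36 in light-treated mice. The 4 untreated libraries were below all WT libraries, and the light-treated libraries overlapped with WT. Kalrn had the smallest fold change of the 9 and the smallest error, at 0.68 ± 0.10, or 0.57 ± 0.10 without both libraries. Its log2 fold change was -0.50 ± 0.10 for untreated against WT and 0.18 ± 0.10 for light-treated against WT.

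Abcc8, the channel subunit, had an FPKM of 5.46, 6.52, 5.02 and 7.08 in WT, 2.59, 5.65, 5.82 and 4.84 in untreated, and 11.15, 10.33, 8.3 and 7.36 in light-treated mice. The light-treated libraries were above all WT libraries too, and WT and untreated libraries overlapped. Its log2 fold change of light-treated against untreated mice was 0.99 ± 0.19, or 0.91 ± 0.22 without both libraries.

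At the cell surface, Itga8 had an FPKM of 2.62, 2.52, 2.29 and 3.04 in WT, 1.12, 1.54, 0.82 and 2.07 in untreated, and 4.52, 5.21, 2.86 and 3.36 in light-treated mice. The untreated libraries were below all WT libraries, and the light-treated libraries overlapped with WT. The log2 fold change was 1.49 ± 0.24, or 1.18 ± 0.21 without both libraries. Thsd7a had an FPKM of 6.19, 7.5, 5.12 and 8.35 in WT, 4.27, 4.72, 2.98 and 3.79 in untreated, and 10.65, 14.23, 7.65 and 6.98 in light-treated mice. As for Kalrn and Itga8, untreated libraries were below all WT libraries and light-treated libraries overlapped with WT. The log2 fold change was 1.21 ± 0.20, or 0.98 ± 0.19 without both libraries.

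Alkal2, the secreted ligand, followed another order. Its FPKM was 3.0, 5.88, 3.94 and 3.67 in WT, 1.25, 1.82, 0.61 and 0.82 in untreated, and 2.28, 2.02, 2.38 and 2.07 in light-treated mice. The 3 groups did not overlap, with WT highest and untreated mice lowest. The log2 fold change was -1.83 ± 0.32 for untreated against WT, 0.93 ± 0.32 for light-treated against untreated and -0.90 ± 0.30 for light-treated against WT; it was the only one of the 9 with an estimate below 0 in the last contrast. Acp1, with which it shares exon bases, had an FPKM of 47.7 ± 6.02, 51.7 ± 4.83 and 48.7 ± 4.59 (SD, n = 4) in WT, untreated and light-treated HPC.

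The 3 contrasts share samples and are therefore not independent. Untreated mice had lower estimates than WT for all 9 genes, from -1.83 for Alkal2 to -0.38 ± 0.19 for Rreb1, and were below WT without overlap for 4 genes, Kalrn, Itga8, Thsd7a and Alkal2, where 5.79% of all tested genes stood apart in that direction. Light-treated mice were above WT without overlap for 3 genes, Onecut1, Mycn and Abcc8, and below it for Alkal2, while the other 5 overlapped with WT; over all tested genes, 7.33% stood apart as higher and 7.52% as lower. The median log2 fold change of the 9 was 1.21 for light-treated against untreated mice, where that of all tested genes was -0.02. Without both libraries that stood apart, the number past the threshold was 0 of the 8 genes that could then be tested, where 0 of all genes tested were called, and leaving out single libraries gave between 0 and 8 (0 without untreated replicate 3, without light-treated replicate 1, 2 or 4, and 2 without untreated replicate 1 or 4). It was also 0 when only both compared groups were fitted.

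Other measures moved with the same groups. In 8 of the 9 genes, all but Alkal2, light-treated replicates 1 and 2 were above replicates 3 and 4. How many of all tested genes had that order was not counted, and nothing is read from the 8. Light-treated replicates 1 and 2 also had the highest dentate granule cell sums, 203 and 216 FPKM against 143 and 137. All 5 dentate markers had an estimate above 0 for light-treated against untreated mice (median log2 1.08, 0 of 5 called). Those estimates include untreated replicate 3, with a dentate sum of 15.5 FPKM, and are not given without it. The other untreated dentate sums were 143, 122 and 139 FPKM, which overlapped with the light-treated ones. All 7 GABAergic markers had an estimate below 0 (0 of 7 called), with sums of 171 to 294 FPKM in light-treated, 293 to 554 in untreated and 510 to 633 in WT mice. The 7 tested leptomeningeal fibroblast markers and the 6 choroid plexus markers were also all below 0 (0 called in each list), with leptomeningeal sums of 17.9 to 30.6 FPKM in light-treated against 41.1 to 116 in untreated mice. In bulk tissue, fewer cells of a type and less RNA per cell cannot be told apart, and the part of these shifts in the values of the 9 genes was not tested.

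The length of transcripts was a further measure of that kind. For light-treated against untreated HPC, the median log2 fold change was -0.19 in the first of 10 equal bins of genes by length, with the shortest transcripts, and 0.11 in the last, with the longest. Within samples, the median of the longest bin minus that of the shortest was 0.33 and 0.31 (log2, relative to the mean of all HPC samples) in light-treated replicates 1 and 2 and -0.14 and -0.02 in replicates 3 and 4, while the untreated libraries ranged from -0.27 to -0.12 and WT from -0.04 to 0.12. Of the 9 genes, Kalrn, Thsd7a and Rreb1 belong to the longest bin, with transcripts of up to 10438, 10998 and 9702 bases, and Alkal2, at 1509 bases, to the second shortest. With an offset for length in each sample, chosen after seeing this trend, the log2 fold change of the 3 long genes was 0.50, 1.02 and 1.03 in place of 0.68, 1.21 and 1.22, and that of Onecut1 was 3.67. In that setting 4 of the 9 passed the threshold, against 0.146% of all 12981 tested genes. This is still the contrast that chose the 9, and nothing is read from the count.

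Within groups, the genes varied together. The Pearson correlation of deviations from the group mean, on log2(FPKM + 1) over the 12 HPC samples, had a median of 0.53 over the 36 pairs, and 33 of the pairs were above 0; the median over all pairs of tested genes was 0.02. Kalrn and Thsd7a had the highest value, 0.92, followed by Celf3 and Itga8 with 0.88 and Onecut1 and Kalrn with 0.85. Alkal2 stood aside, with a median of 0.15 to the other 8 and a range from -0.21 to 0.61. These points share libraries, depth and the length trend, and no test was made. The 12 samples include the groups on which the genes were chosen. Genes chosen for 1 direction in these libraries are not like all tested genes, and nothing is read from the difference in medians. The median over the 36 pairs was 0.51 with a pseudocount of 0.1 and between 0.45 and 0.61 when each sample was left out in turn.

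**Figure D3:**
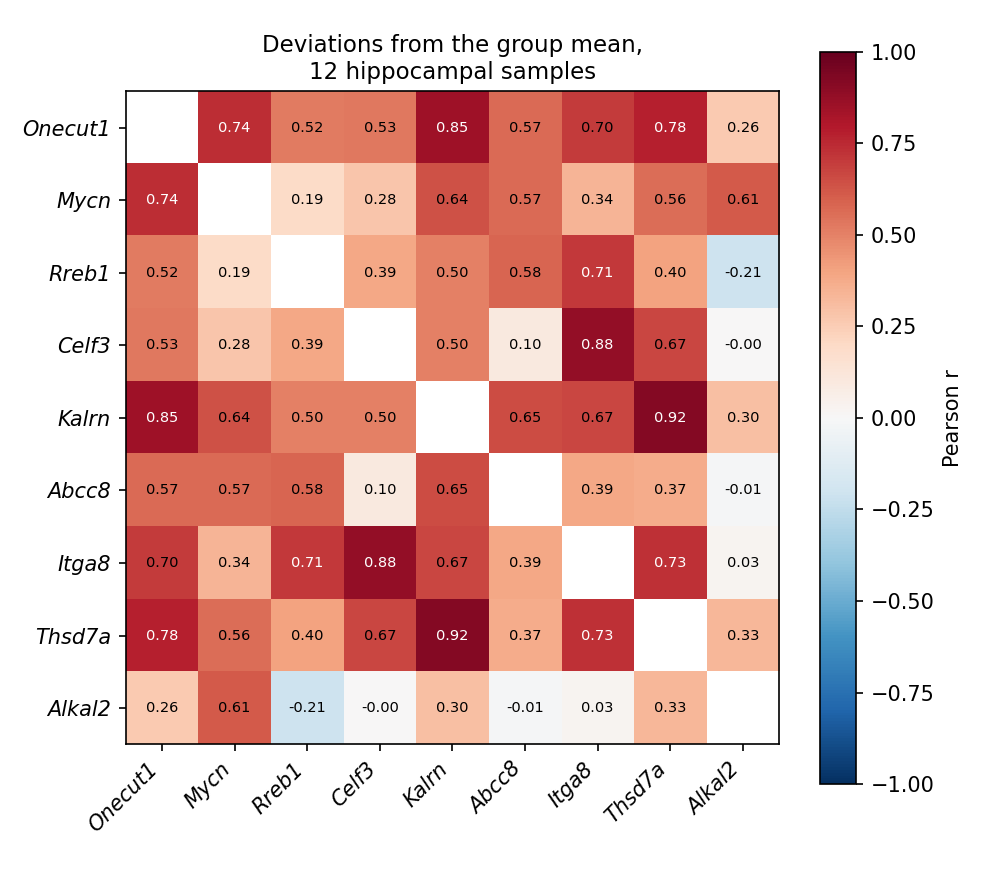
Pearson correlation between the 9 genes of deviations from the group mean, log2(FPKM + 1), over 12 HPC samples (colour from -1 to 1, values printed in the cells). Pairs without Alkal2 range from 0.10 to 0.92, while the Alkal2 row ranges from -0.21 to 0.61.

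The genes whose pattern over all 12 HPC samples was most like theirs, by Pearson correlation on log2(FPKM + 1), were in part members themselves. Lratd2 led for both Onecut1 (0.96) and Mycn (0.95), followed by Hey1 for Onecut1 (0.95) and by Onecut1 for Mycn (0.94). Itga8 led for Celf3 (0.95), before Enc1 (0.95), and Sptb (0.96) and Rbfox1 (0.95) for Itga8. Kalrn was most like Ksr2 (0.96) and Scn8a (0.96), Rreb1 like Cacna1e (0.93) and Ctif (0.92), and Abcc8 like Grid1 (0.97) and Btbd2 (0.96). Thsd7a was most like Btbd3 (0.97) and Ablim3 (0.97), and Alkal2 like Rnf165 (0.93) and Zfp189 (0.92). All 12 samples include the groups on which the genes were chosen.

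Partners, paralogs and other genes related to the 9 (called partners below), 79 in all, were tested in the same fit. These lists were chosen with earlier results of these data known. Of the 61 tested in HPC, 3 were higher after light treatment and 0 were lower (edgeR, adjusted p below 0.05), against 0.270% and 0.185% of all tested genes. Since the lists were made with results known, nothing is read from this count. The median log2 fold change of the 61 was 0.05. Cacna1c, the L-type calcium channel pore listed beside Abcc8, rose by 1.04 ± 0.15 (log2, SE; adjusted p = 0.0328), from an FPKM of 1.58 ± 0.277 to 3.31 ± 1.13 (SD, n = 4). Sema5a, a semaphorin with thrombospondin repeats like Thsd7a, rose by 1.47 ± 0.29 (adjusted p = 0.0482), from 4.54 ± 1.69 to 12.7 ± 4.94 FPKM. Rbfox1, a neuronal splicing factor listed beside Celf3, rose by 0.60 ± 0.11 (adjusted p = 0.0462), from 124.66 to 175.86 FPKM over the untreated libraries to 215.01 to 280.35 over the light-treated ones. These calls were lost without both libraries that stood apart, where 0 partners and 0 of all 12819 genes tested passed, and held in 10, 6 and 7 of 16 alternatives for Cacna1c, Sema5a and Rbfox1, whose lowest log2 fold changes over these alternatives were 0.71, 1.13 and 0.52.

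Other partners did not pass. Npnt, the ligand of the integrin that Itga8 forms, had an FPKM of 4.63 ± 2.23 in untreated and 11.3 ± 3.68 in light-treated mice, a log2 fold change of 1.33 ± 0.29 (adjusted p = 0.0650), while Itgb1, the paired integrin chain, had -0.36 ± 0.12 (adjusted p = 0.150). Kcnj11, the pore that Abcc8 regulates, had 0.44 ± 0.20 (adjusted p = 0.256). Max, the dimer partner of Mycn, had 0.35 ± 0.14 (adjusted p = 0.214), and Myc, its paralog, -0.28 ± 0.34 (adjusted p = 0.679). For Kalrn, its paralog Trio had 0.01 ± 0.15 (adjusted p = 0.970) and its substrate Rac1 0.16 ± 0.11 (adjusted p = 0.462). For Rreb1, Smad3 had 0.50 ± 0.17 (adjusted p = 0.159) and Smad4 0.20 ± 0.23 (adjusted p = 0.671). The Celf3 paralogs Celf4 and Celf5 had -0.09 ± 0.09 (adjusted p = 0.617) and 0.22 ± 0.09 (adjusted p = 0.239), and the Thsd7a paralog Thsd7b had -0.27 ± 0.23 (adjusted p = 0.550). Of the receptors of Alkal2, Ltk had 0.33 ± 0.40 (adjusted p = 0.686), and Alk, at 0.175 ± 0.0904 FPKM in untreated and 0.0950 ± 0.0129 in light-treated mice, was below the filter. None of the 6 genes listed for Onecut1 passed the filter; Onecut2 had an FPKM of 0.353 ± 0.0562 in untreated and 0.642 ± 0.225 in light-treated mice, and Onecut3 was at most 0.04 in every HPC library.

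For untreated 5xFAD against WT HPC, where 8.54% of all tested genes were called, 2 of the 61 partners rose and 3 fell. Spp1, a secreted integrin ligand, rose by 2.74 ± 0.58 (edgeR, adjusted p = 0.00932) and Thbs2, a thrombospondin, by 1.01 ± 0.23 (adjusted p = 0.0136). Rbfox1 fell by 0.39 ± 0.11 on the log2 scale (adjusted p = 0.0372), Zeb2 by 0.51 ± 0.15 (adjusted p = 0.0463) and Mcf2l, a guanine nucleotide exchange factor, by 0.35 ± 0.10 (adjusted p = 0.0476). For light-treated 5xFAD against WT, where 3.59% were called, 2 rose, Spp1 by 2.33 ± 0.57 (adjusted p = 0.0379) and Cacna1c by 0.79 ± 0.15 (adjusted p = 0.00673), and 0 fell.

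Meninges were a tissue the choice of genes had not used. Of the 9 genes, 6 passed the filter there, and Onecut1, Abcc8 and Alkal2 did not. Of the 6, 0 differed between light-treated and untreated 5xFAD mice, where 0.0140% of the 14318 tested genes were called (edgeR, and also 0 of the 6 by DESeq2). At an unadjusted p under 0.05 by edgeR there were 2 of the 6, against 1822 of the 14318 genes. Estimates went both ways, 3 above and 3 below 0. In counts simulated with the spread of these samples over the same 14318 genes, the test recovered 0 of 200 genes changed 2-fold and 170 of 200 changed 4-fold, so 2-fold differences were not detectable.

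Mycn had an FPKM of 1.04, 2.98, 1.79 and 0.43 in WT, 3.29, 1.28 and 0.52 in untreated, and 3.37, 6.85 and 4.73 in light-treated meninges. All light-treated libraries were above the others, though the lowest barely so, with a log2 fold change of 1.62 ± 0.67 against untreated mice (adjusted p = 0.351). Kalrn was 14.57, 15.28 and 10.05 in untreated and 15.3, 28.45 and 21.1 in light-treated meninges (0.34 ± 0.28, adjusted p = 0.619), barely apart. Celf3 was 3.47, 5.08 and 1.6 in untreated and 5.2, 20.37 and 2.53 in light-treated meninges, which overlapped (1.19 ± 0.57, adjusted p = 0.404). Its estimate rested on light-treated replicate 2, and the lowest value with a library left out was 0.24.

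Thsd7a and Itga8 lay in the other direction. Thsd7a was 4.28, 3.83, 4.11 and 2.85 in WT, 4.29, 3.95 and 5.34 in untreated, and 2.86, 3.33 and 2.26 in light-treated meninges, where each light-treated library was below each untreated one (-0.59 ± 0.23, adjusted p = 0.334). Itga8 was 1.83, 1.72, 3.44 and 1.84 in WT, 3.24, 2.65 and 3.87 in untreated, and 2.6, 1.42 and 2.51 in light-treated meninges, again without overlap between the last 2 groups (-0.56 ± 0.34, adjusted p = 0.499). Rreb1 was 10.04, 8.37 and 4.67 in untreated and 6.93, 4.93 and 4.71 in light-treated meninges, which overlapped (-0.58 ± 0.28, adjusted p = 0.405). In all, 4 of the 6 tested genes stood apart in one direction or the other, and 20.8% of all tested genes did so with 3 libraries against 3. Onecut1, Abcc8 and Alkal2, below the filter, overlapped.

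**Figure D4:**
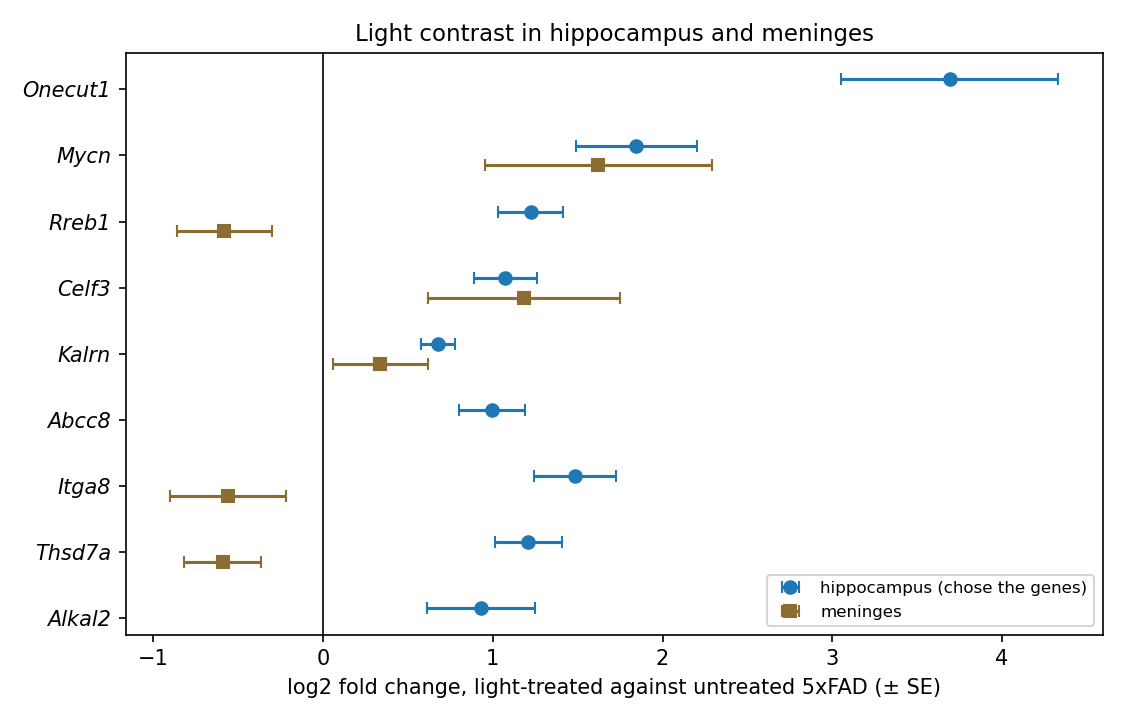
Log2 fold change ± SE of light-treated against untreated 5xFAD mice in HPC (circles, the contrast that chose the genes) and in meninges (squares, 6 genes above the filter). All 9 HPC estimates are above 0, while in meninges Mycn, Celf3 and Kalrn are above 0 and Rreb1, Itga8 and Thsd7a below, with no meningeal estimate past the threshold.

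Transcript length moved with these groups in meninges too, and the other way than in HPC: the median log2 fold change of light-treated against untreated mice was 0.15 in the bin with the shortest and -0.46 in that with the longest transcripts. Within samples, the median of the longest bin minus that of the shortest was 0.02 to 0.53 in untreated and -0.43 to -0.12 in light-treated meninges. It ranged from -0.60 to 0.61 in WT meninges alone, so it varied as widely within that group. Against the median of genes in the same bin, Thsd7a and Rreb1 differed by -0.13 and -0.12, Itga8 by -0.35, and Kalrn by 0.80. With the length offset, the log2 fold changes of Thsd7a, Rreb1 and Itga8 were -0.03, -0.04 and -0.30 in place of -0.59, -0.58 and -0.56. The meningeal libraries also held RNA of other tissues. Choroid plexus markers summed to 15791 to 49661 FPKM, pan-neuronal markers to 89.2 to 490, and 4 pinealocyte genes, listed after the data were seen, to 74.0 to 447 in untreated and 256 to 697 in light-treated meninges. Untreated replicate 4 had the lowest neuronal and pineal sums and the lowest Mycn, Celf3 and Kalrn of the untreated libraries. The part of these in the values was not tested.

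Against WT meninges, 0 of 6 genes differed in untreated 5xFAD mice, where 0 of 14318 tested genes were called (edgeR; 0 of the 6 at an unadjusted p under 0.05, and 0 by DESeq2), and 0 of 6 in light-treated 5xFAD mice, where 0.0140% were called (1 of the 6 at an unadjusted p under 0.05, and 0 by DESeq2). The largest estimate was that of Mycn in light-treated against WT meninges, 1.65 ± 0.61 (adjusted p = 0.211). Of the 65 partners and paralogs tested in meninges, 0 were called in any of the 3 contrasts by edgeR, with 14, 3 and 12 at an unadjusted p under 0.05 for light-treated against untreated, untreated against WT and light-treated against WT mice. Over all 14318 tested genes, 1822, 574 and 2355 were at an unadjusted p under 0.05 in the same 3 contrasts.

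In sorted mLECs the genes were mostly at 0. Onecut1, Abcc8, Itga8 and Alkal2 were listed at 0 in all 10 libraries, and Celf3 reached no more than 0.25 FPKM. Mycn was listed at 3.71 in WT replicate 3 and at 16.14 in light-treated replicate 1 and at 0 in the other 8. Kalrn reached 10.33 in WT replicate 3 and Thsd7a 12.76 in WT replicate 4, the library with few lymphatic markers, and Kalrn lay at or below 0.75 and Thsd7a at or below 1.93 in all 5xFAD libraries. Rreb1 alone passed the filter, with 0.01, 0.01, 9.99 and 11.15 in WT, 0, 0.32 and 0 in untreated, and 0, 0.03 and 1.71 in light-treated mLECs. It was not called for light-treated against untreated mice (edgeR, log2 1.55 ± 3.51, adjusted p = 1.00), nor by DESeq2 or at an unadjusted p under 0.05, and 0 of the 8188 genes tested were called. In counts simulated with 1 common spread for these 8188 genes, 0 of 200 genes changed 4-fold were recovered. At that spread a difference of that size was not detectable, and the spread of Rreb1 itself was not simulated.

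WT meninges and WT HPC, from mice without transgenes or light, differed in most genes, with 71.1% of 14144 tested genes called. Whether both tissues came from the same mice is not given in the sources used here, and they were fitted as independent samples; the fit with the shared replicate number as a block called as many members, 6. Of the 8 members tested, 5 were lower in meninges, 1 was higher and 2 were not called. Over all tested genes, 33.2% were called lower in meninges and 37.8% higher. Abcc8 (0.63, 0.17, 0 and 1.28 FPKM in WT meninges) was lower than in HPC by -5.44 ± 0.54 (log2, SE; edgeR, adjusted p = 7.19e-06), and Alkal2 (0.04, 0, 0.29 and 0.49) by -4.68 ± 0.68 (adjusted p = 0.000122). In WT meninges Alkal2 was below 1 FPKM in every library and Abcc8 in all but replicate 4. Both therefore passed the filter only through HPC, where they are high, and their calls as lower are a description. Kalrn (16.22, 10.66, 17.81 and 12.72) differed by -2.54 ± 0.22 (adjusted p = 2.75e-06), Celf3 (10.91, 6.64, 4.29 and 6.32) by -1.88 ± 0.26 (adjusted p = 8.59e-05) and Thsd7a by -0.69 ± 0.17 (adjusted p = 0.00347). None of these 5 overlapped between the tissues, where 30.5% of all tested genes stood apart as lower in meninges and 66.0% in either direction. Rreb1 was the member higher in meninges, at 7.27, 7.29, 11.97 and 11.88 FPKM, by 1.05 ± 0.23 (adjusted p = 0.00180), with an overlap of 1 HPC library. Itga8 had -0.27 ± 0.23 (adjusted p = 0.320) and Mycn 0.04 ± 0.54 (adjusted p = 0.950). Onecut1, below the filter in both tissues, was 0, 0.02, 0.08 and 0.18 in WT meninges, under each WT HPC library. Of the 67 partners tested, 25 were higher and 26 lower in meninges; those of Celf3, neuronal RNA-binding proteins in the main, were lower in 11 of 12, and those of Itga8, integrins, their ligands and other matrix proteins, were higher in 8 of 9.

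**Figure D5:**
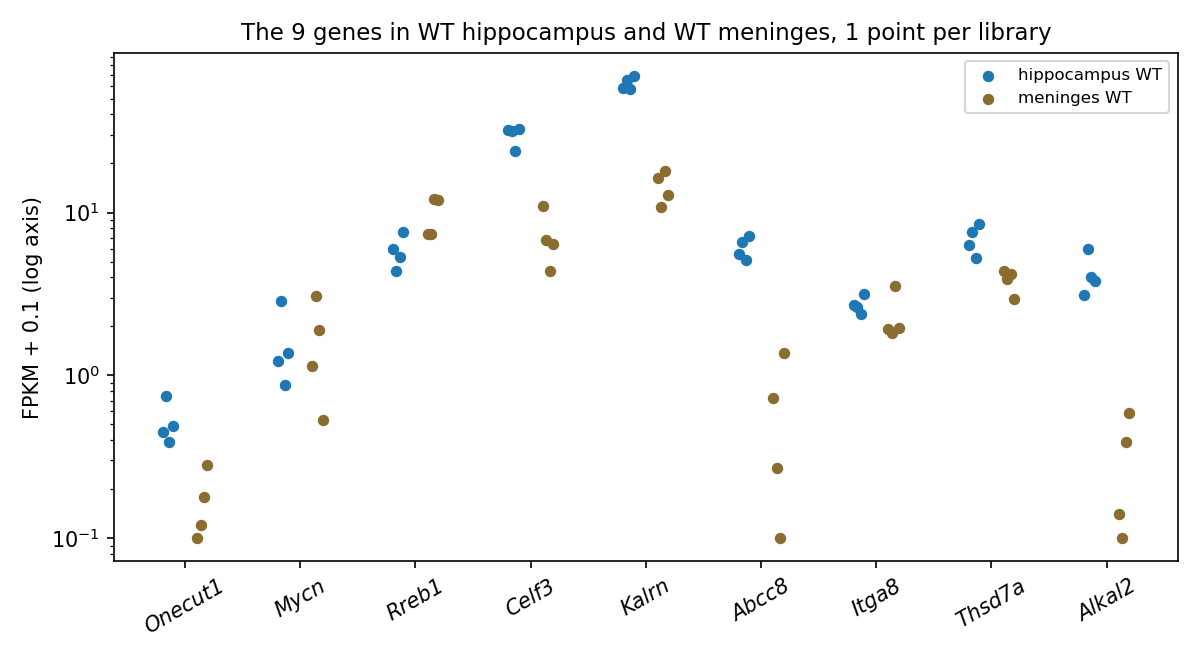
FPKM + 0.1 (log axis) of the 9 genes in WT HPC and WT meninges, 1 point per library. Abcc8, Alkal2, Kalrn, Celf3, Thsd7a and Onecut1 (below the filter) are lower in all 4 meningeal libraries than in all 4 HPC libraries. Mycn and Itga8 overlap, and Rreb1 is higher in meninges with an overlap of 1 HPC library.

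Over the 9 groups of samples, the highest mean was that of light-treated HPC for Onecut1, Celf3, Kalrn, Abcc8, Itga8 and Thsd7a, that of WT HPC for Alkal2, that of WT meninges for Rreb1, and that of light-treated mLECs for Mycn, where it came from 1 library. Only for Onecut1, Abcc8 and Alkal2 did the highest group stand apart from the next, which was WT HPC for Onecut1 and Abcc8 and light-treated HPC for Alkal2.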

How the data were processed

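Hippocampus, meninges and sorted mLECs of male mice were profiled by RNA-seq in 32 Smart-seq2 libraries, each from 1 individual tissue. Per the study's methods, reads were trimmed with fastp and quantified with RSEM; the submitters' processing notes name Trimmomatic, HISAT2, StringTie, DESeq2 and the build mm10, without versions. The authors deposited FPKM (fragments scaled to transcript length and library size) and expected counts for 22337 genes in a table per tissue set, joined here by gene ID; 69.2% of symbols were equal in both. Levels are the deposited FPKM.

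The main test was edgeR's quasi-likelihood F test (version 4.0.16, R 4.3.3) on expected counts rounded to whole numbers, with TMM scaling, a filter that kept genes reaching 1 FPKM in 3 or more samples, Benjamini-Hochberg adjustment over all tested genes and a threshold of 0.05, with the 3 groups of a tissue in 1 fit. The test was run on simulated data with known changes. WT tissues were compared in a fit of their 8 samples. The genes named besides the members are the first 2 partners listed for each member, other partners called in HPC, and the 2 most alike genes, without provisional symbols; those called between WT tissues are given as counts. Members and lists were chosen with earlier results of these data known. Alternatives were median-of-ratios scaling, no filter, only the compared groups, a replicate block, DESeq2 1.42.0, limma 3.58.1 on log2(FPKM + 1), and leaving out each sample. A transcript-length offset, leaving out both HPC libraries that stood apart, the count of partner calls over alternatives, and the pinealocyte list were chosen after seeing the data. Deviations were taken on log2(FPKM + 1). Positions are from GENCODE vM21 and promoters from RefSeq. Replicates of a group never agreed within sampling noise.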

Additional observations from a re-analysis of the deposited data

Results flagged for a closer look

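Of 53 groups of 4 samples examined for a sample far from the others, 10 held one, and chance gives about 1 in 20. In HPC, Celf3 was lowest in WT replicate 3 (23.8 FPKM). The marker sums set apart untreated 5xFAD replicate 3 (dentate 15.5 and neocortical 203 FPKM), light-treated replicate 2 (thalamic and habenular 128), WT replicate 4 (thalamic and habenular, lowest at 21.4) and light-treated replicate 1 (leptomeningeal, lowest at 17.9). In WT meninges, Itga8 was highest in replicate 3 (3.44 FPKM). In WT mLECs, Mycn (3.71) and Celf3 (0.0200) were highest in replicate 3 and Thsd7a (12.8) in replicate 4.

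Itga8 and Thsd7a stood apart in opposite directions between the tissues: light-treated 5xFAD libraries were all above untreated ones in HPC and all below them in meninges, where the log2 fold changes were -0.56 and -0.59. With an offset for transcript length, chosen after seeing the data, these became -0.30 and -0.03. The difference between the tissues was not tested.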

How the results depend on the processing

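In HPC, 8 members were called for light-treated against untreated 5xFAD mice; the number was 0 with only the compared groups in the fit, 4 with the length offset, 0 without both libraries that stood apart, and 0 to 8 with a sample left out. The partner count of 3 became 5 without a filter, 0 with only the compared groups, 9 by DESeq2, 0 without both libraries and 0 to 7 with a sample left out. Over all genes the calls numbered 59, and 1, 641, 19 and 0 with only the compared groups, by DESeq2, with the length offset and without both libraries. Fewer samples enter the first and last of these; the cause of the others was not tested. Onecut1 could not be fitted in 4 settings, nor Rreb1 in mLECs in 1.

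Of 377 values of single genes under alternatives in the contrasts with a test, 343 kept their direction and side of the threshold, 33 changed sign, none past the threshold, and 1 gained a call, Itga8 between WT tissues without meninges WT replicate 3 (-0.50, adjusted p = 0.0265 by edgeR). Without a filter, Mycn and Rreb1 in untreated against WT meninges became -0.04 and -0.01, and Mycn between WT tissues -0.07. In untreated against WT meninges, Rreb1 was -0.31 by limma and -0.13 with the length offset. For light-treated against WT meninges, Itga8 was -0.00097 by median-of-ratios scaling, -0.0012 by DESeq2 and -0.01 by limma, and Thsd7a was 0.14 with the length offset. With a sample left out, untreated against WT meninges ranged from -0.84 to 0.57 for Mycn, -0.20 to 0.27 for Rreb1 and -0.23 to 0.09 for Kalrn, light-treated against WT meninges from -0.79 to 0.51 for Celf3 and -0.18 to 0.30 for Itga8, and Mycn between WT tissues from -0.47 to 0.49. The meningeal light contrast of Thsd7a and Rreb1, -0.59 and -0.58, was -0.03 and -0.04 with the length offset. In the HPC light contrast, described without a test, 131 of 140 values moved by less than 1 SD between replicates, 9 moved by more and none changed sign. The cause was not tested.

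Same-numbered samples of different groups within a tissue did not deviate together (median correlation -0.02 in HPC over 12 pairs, -0.06 in meninges over 9). So few pairs cannot settle whether such samples share more than a number. Same-numbered samples of HPC and meninges were not compared. With the replicate block, 8 HPC members and 56 genes over all were called, and Kalrn in untreated against WT meninges became 0.08, Celf3 in light-treated against WT meninges -0.37, Rreb1 in mLECs -1.69 and Mycn between WT tissues -0.07; no call of a member changed. Depth limits Onecut1, with 0 to 30 expected counts in untreated HPC.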
